A study of Mus musculus with 30 samples.

Results

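Cytosolic aminoacyl-tRNA synthetases were followed in cultured mouse macrophages given ligands of oxysterol-binding protein (OSBP). The members were the 10 genes Aars, Cars, Eprs, Gars, Iars, Lars, Mars, Nars, Sars and Tars, taken by name from a table of 30538 genes, and all 10 were among the 13173 genes that passed the filter on low counts. They were chosen with earlier results of these data known, so their counts are not independent of these data. The other 11 cytosolic synthetases are given separately below. The cells were bone marrow derived macrophages, grown from marrow of C57BL/6 (wild-type) mice and of Ch25h-/- mice, and the measurement was RNA sequencing of polyadenylated RNA in 30 libraries. Wild-type cells were exposed to 25-hydroxycholesterol (25HC, 5 µM), itraconazole (1 µM) or OSW-1 (0.3 µM) for 18 h and either left unstimulated or then given lipopolysaccharide (LPS, 10 ng/mL) for 18 h, and untreated wild-type cells were kept without and with LPS. Ch25h-/- cells, which lack cholesterol 25-hydroxylase, were studied untreated without and with LPS. That made 10 groups of 3 libraries, 1 from each of 3 mice. The labels do not say whether the compounds stayed on during the LPS exposure, so that exposure to a compound may differ between the groups with and without LPS. They name no vehicle for the untreated cells, and each compound was used at a single dose.

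Each of these enzymes joins its amino acid, or both glutamate and proline in the case of Eprs, to its transfer RNA (tRNA), the step that supplies the ribosome. In mammals several of them, Eprs, Iars, Lars and Mars among the members, sit in a multi-synthetase complex held together by scaffold proteins, whereas Aars, Cars, Gars, Nars, Sars and Tars act outside it, and Gars serves both the cytosol and mitochondria. Many of these genes are known targets of Atf4, the transcription factor made when eIF2α kinases respond to amino acid shortage or to stress in the endoplasmic reticulum. 25HC is an oxysterol made by the enzyme Ch25h in macrophages exposed to LPS, itraconazole is an antifungal triazole, and OSW-1 is a plant steroidal saponin.

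The library totals ran from 23656860 to 43922154 counts, and no member had fewer than 846 counts in any library. Ch25h itself had 0 to 0.277 CPM (counts scaled to the effective library size) in unstimulated Ch25h-/- cells and 0 to 0.225 CPM in Ch25h-/- cells with LPS, against 1.42 to 2.24 CPM in untreated wild-type cells and 0.973 to 2.34 CPM in wild-type cells with LPS alone. Without LPS it had 4.46 to 13.3 CPM with 25HC, 4.84 to 21.4 CPM with itraconazole and 9.92 to 29.1 CPM with OSW-1. With LPS the ranges were 1.98 to 3.86, 2.63 to 7.58 and 0.599 to 1.82 CPM in the same order. All 8 macrophage markers were present in every group. Their summed level was 5659 to 7769 CPM with OSW-1 and LPS, 14226 to 20374 CPM with 25HC and LPS and 15034 to 28184 CPM with itraconazole and LPS, against 24432 to 35664 CPM with LPS alone. In the unstimulated wild-type groups it lay between 17439 and 22147 CPM. The sum is weighted by the most abundant marker, Lyz2, at a mean of 11581 CPM over the 30 libraries, and does not show each marker. Over the 30 libraries Lyz2 ranged from 1272 to 21074 CPM, Mertk from 1.44 to 141 CPM and Spi1 from 331 to 483 CPM. The summed markers of neutrophils, T cells, B cells, NK cells, dendritic cells and stroma stayed at or below 37.0 CPM in every library, and Cd8a was at 0 throughout. In 20 libraries every gene count was an even number, whereas the OSW-1 plus LPS libraries, all Ch25h-/- libraries and mouse 3 of the 25HC cells held odd and even counts alike, so that for the OSW-1 plus LPS and Ch25h-/- groups this feature and the group cannot be told apart.

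The stretch around the gene start was examined for the C/EBP-ATF response element, TGATGNAA, which Atf4 and its C/EBP partners bind. RefSeq promoters (GRCm38.p6, 250 bases before to 50 after the gene start) were used for Aars, Eprs, Gars, Iars, Mars, Sars and Tars, and both strands were searched. The members Cars, Lars and Nars were not searched, so the count below says nothing about them. The element was found in 4 of these 7 windows, and in 3.97% of all 32851 promoters. Each match lay on the strand opposite to the gene. The 30-base windows given here carry the match in capitals and show examples of the element in these members; not every match is shown. Relative to the gene start, the matches shown cover positions 10 to 17 (chr8:111033840-111033869, plus strand) in Aars, -30 to -23 in Gars (chr6:55037960-55037989, plus strand), 8 to 15 in Iars (chr13:49682126-49682155, plus strand) and -15 to -8 in Tars (chr15:11399655-11399684, minus strand).
Aars: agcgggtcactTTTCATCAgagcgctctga
Gars: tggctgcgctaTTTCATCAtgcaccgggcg
Iars: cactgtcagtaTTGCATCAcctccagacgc
Tars: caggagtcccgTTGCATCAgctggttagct

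The windows of Eprs, Mars and Sars held no match to these letters. The 250 bases upstream of Gars (chr6:55037751-55038000, plus strand), with its match in capitals, and of Mars (chr10:127311787-127312036, minus strand) are given in full as a member with a match and one without.
Gars promoter: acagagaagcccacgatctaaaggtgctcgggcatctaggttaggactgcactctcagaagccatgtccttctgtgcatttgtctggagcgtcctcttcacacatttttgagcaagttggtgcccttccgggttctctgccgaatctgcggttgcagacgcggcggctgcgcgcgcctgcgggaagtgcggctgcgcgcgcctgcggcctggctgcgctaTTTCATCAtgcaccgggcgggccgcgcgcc
Mars promoter: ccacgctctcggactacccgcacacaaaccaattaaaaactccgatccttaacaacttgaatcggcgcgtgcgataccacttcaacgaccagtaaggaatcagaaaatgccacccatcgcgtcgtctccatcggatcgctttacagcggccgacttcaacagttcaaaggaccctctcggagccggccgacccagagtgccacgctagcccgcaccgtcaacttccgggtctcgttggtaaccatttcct

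Across the 10 groups, every member was at its highest in macrophages given OSW-1 and LPS. For 9 of the 10 the 3 libraries of that group stood above those of the next group, and for Cars they overlapped with itraconazole plus LPS. The lowest group was a Ch25h-/- group for all 10, with LPS for Iars and Nars and without it for the other members. For every member but Sars, the libraries of the lowest group overlapped with those of the next lowest. The mean of the highest group was 8.30 times that of the lowest for Aars, the alanyl-tRNA synthetase, and 2.33 times for Nars, the asparaginyl-tRNA synthetase. Within groups the SD averaged 14.7% of the mean for Aars and 7.15% for Nars. The 10 members together took 0.366 ± 0.0101% of all counts with OSW-1 and LPS and 0.117 ± 0.0159% with LPS alone (SD, n = 3 each). They took 0.189 ± 0.0336% with 25HC, 0.158 ± 0.0147% with itraconazole and 0.218 ± 0.0346% with OSW-1, against 0.103 ± 0.0143% in untreated cells without LPS. In bulk RNA, fewer cells of a type and less RNA per cell cannot be told apart.

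**Figure D1:**
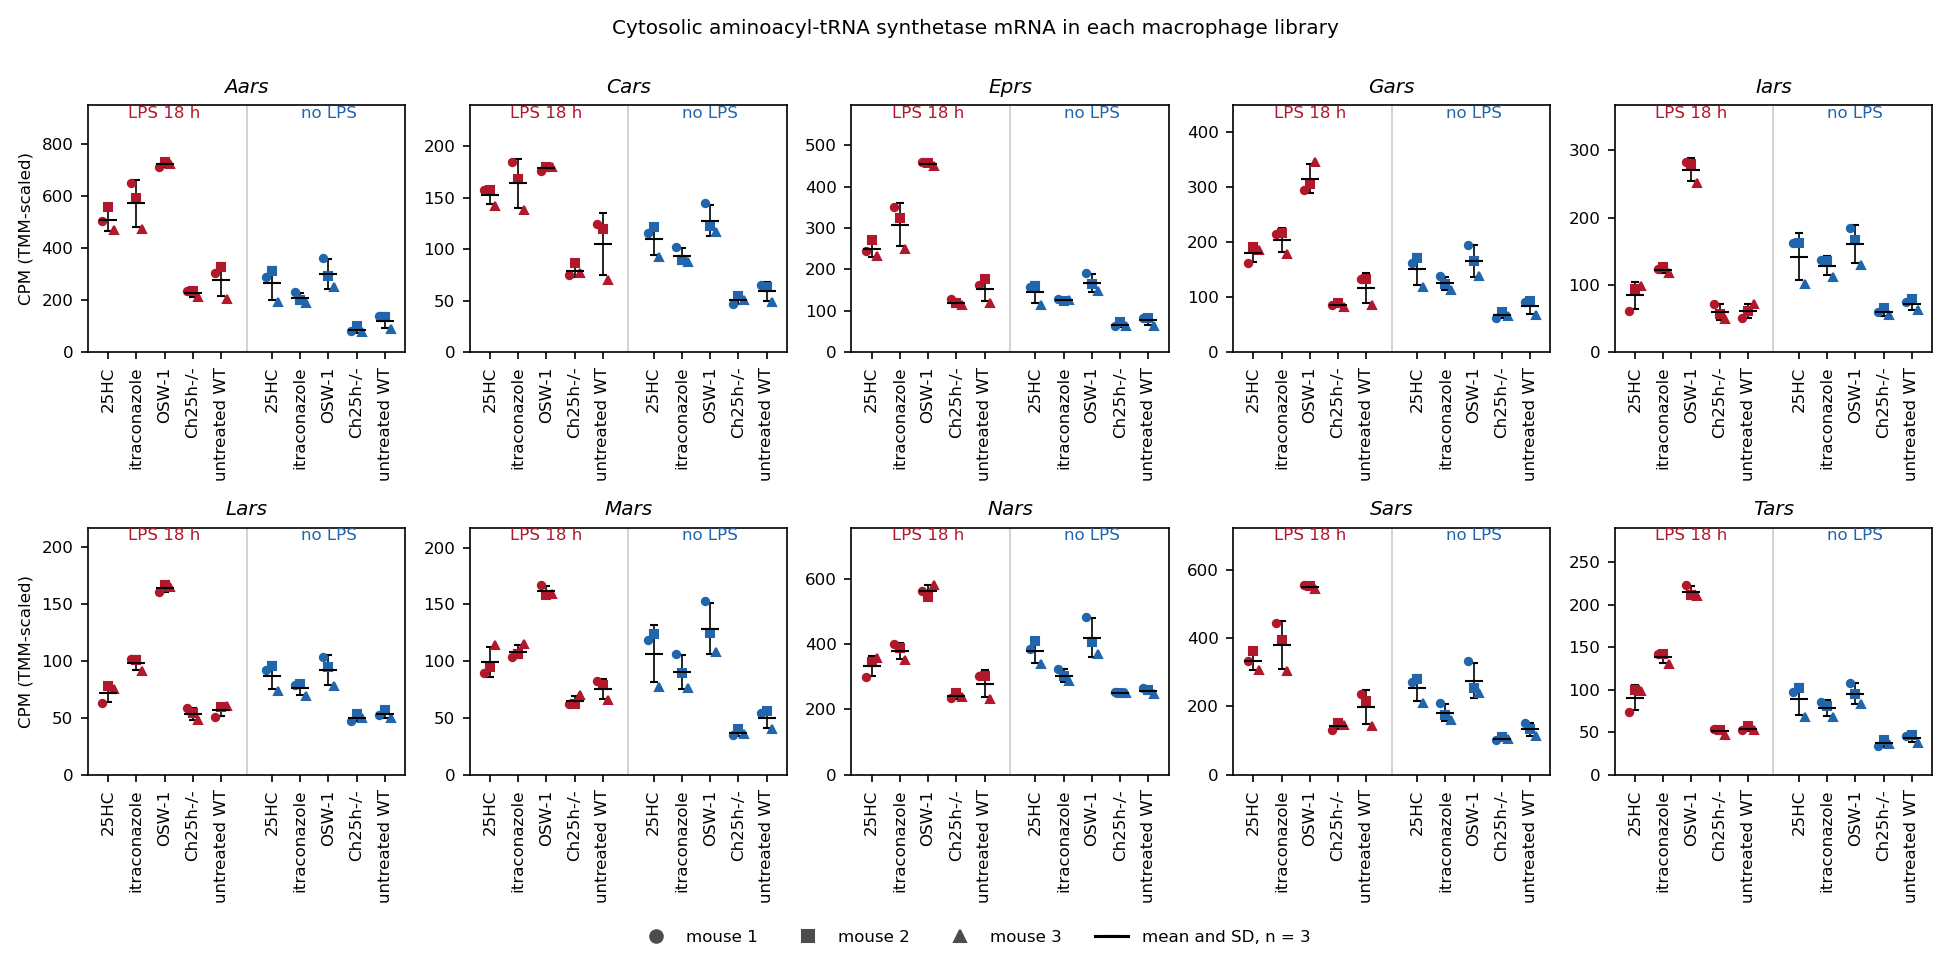
CPM of each member (y axis, TMM-scaled, from 0) in the 30 libraries, with the LPS groups in red on the left and the unstimulated groups in blue on the right of each panel; symbols mark the 3 mice and bars the mean and SD. The OSW-1 plus LPS group is the highest in all 10 panels, at 722 CPM for Aars and 271 CPM for Iars.

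25HC without LPS raised all 10 members, when 15.9% of the genes tested were called higher (edgeR's quasi-likelihood test, Benjamini-Hochberg adjustment over all 13173 genes, adjusted p under 0.05). The median log2 fold change of the members was 0.93, against 0.0070 over all genes tested. For all 10 the 3 treated libraries lay above the 3 untreated ones, a pattern shown by 24.1% of genes. Aars had 289, 312 and 193 CPM with 25HC in mice 1, 2 and 3, against 141, 135 and 87.9 CPM in untreated cells. Mouse 3 was the lowest in both groups, and the groups did not overlap. The log2 fold change of Aars was 1.13 ± 0.19 (SE), adjusted p = 7.76e-05. Tars, which charges the threonine tRNA, had 96.8, 102 and 68.0 CPM with 25HC against 46.0, 47.1 and 37.4 CPM in untreated cells, a log2 fold change of 1.03 ± 0.13 with adjusted p = 3.61e-06. Mars (methionyl) rose by 1.08 ± 0.16 on the log2 scale and Iars (isoleucyl) by 0.98 ± 0.18. Nars rose least, by 0.55 ± 0.10 (adjusted p = 0.000233), with 386, 409 and 338 CPM with 25HC against 266, 260.1 and 248 CPM in untreated cells. All 10 members were at their lowest in mouse 3 both with 25HC and in the untreated cells.

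Itraconazole without LPS raised 9 of the 10 members, against 14.4% of all genes tested. The members' median log2 fold change was 0.69, and that of all genes was 0.0040. Mars had 107, 89.4 and 76.3 CPM with itraconazole against 54.8, 56.2 and 40.1 CPM in untreated cells, a log2 fold change of 0.85 ± 0.16 with adjusted p = 0.000296. Iars had 138, 136 and 112 CPM with itraconazole against 73.8, 78.9 and 61.9 CPM in untreated cells (0.85 ± 0.18 on the log2 scale, adjusted p = 0.00116). All treated libraries lay above all untreated ones for both genes, and the same held for all 10 members, against 25.7% of genes. Tars rose by 0.84 ± 0.13 (adjusted p = 5.66e-05). Nars did not pass, at 324, 301 and 286 CPM with itraconazole against 266, 260.1 and 248 CPM in untreated cells (0.24 ± 0.10, adjusted p = 0.0894), but passed when these groups were fitted on their own (0.22, adjusted p = 0.0268). The calls of Sars (seryl, 0.46 ± 0.16, adjusted p = 0.0386) and Gars (glycyl, 0.57 ± 0.16, adjusted p = 0.00884) were lost without single libraries. Sars reached adjusted p values of 0.0667 to 0.193 without mouse 2 or 3 of the untreated cells or mouse 1 or 2 of the treated ones, and Gars reached 0.0754 without untreated mouse 3 and 0.0511 without treated mouse 1.

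OSW-1 without LPS raised all 10 members, against 20.1% of all genes, with a median log2 fold change of 1.12 beside 0.00 over all genes tested. Mars had 153, 125 and 108 CPM with OSW-1 against 54.8, 56.2 and 40.1 CPM in untreated cells. The log2 fold change of 1.35 ± 0.16 (adjusted p = 3.64e-07) was the largest of the 10 in this comparison. Aars had 362, 291 and 250.2 CPM with OSW-1 against 141, 135 and 87.9 CPM in untreated cells (1.31 ± 0.19, adjusted p = 6.48e-06). Cars, the cysteinyl-tRNA synthetase, had 145, 123 and 117 CPM with OSW-1 against 65.5, 63.2 and 48.7 CPM in untreated cells (1.11 ± 0.16, adjusted p = 4.61e-06). In these 3 genes the lowest treated library was well above the highest untreated one, and all 10 members had groups that did not overlap, against 27.5% of genes. Lars (leucyl) rose by 0.79 ± 0.11 and Nars by 0.70 ± 0.10. Mouse 3 was again the lowest of the OSW-1 libraries for all 10. The doses of the 3 compounds differ, so their values are set side by side without a test: the medians at 5 µM 25HC, 1 µM itraconazole and 0.3 µM OSW-1 were 0.93, 0.69 and 1.12, all measured against the same 3 untreated libraries.

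Added before LPS, the compounds again raised the members over LPS alone. All 10 rose with 25HC, against 20.8% of all genes, all 10 with itraconazole, against 26.5%, and all 10 with OSW-1, against 34.3%. The medians were 0.58, 0.87 and 1.45 on the log2 scale, beside -0.0094, -0.033 and -0.058 over all genes tested, and the 3 comparisons share the LPS-alone libraries. Of the 60 pairings of a member with a compound comparison, without and with LPS, 59 were called higher and none lower.

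Iars showed the largest rise of any member in any comparison. With OSW-1 and LPS it had 282, 279.8 and 251 CPM, against 50.6, 61.6 and 70.9 CPM with LPS alone, a log2 fold change of 2.15 ± 0.19 and adjusted p = 2.21e-10. Tars had 223, 212 and 209.9 CPM with OSW-1 and LPS against 52.5, 57.2 and 52.8 CPM with LPS alone (1.99 ± 0.14, adjusted p = 3.3e-12). For both genes the groups were far apart and did not overlap. Eprs, the fused glutamyl- and prolyl-tRNA synthetase, had 459.6, 459 and 449.6 CPM with OSW-1 and LPS against 162, 178 and 120.0 CPM with LPS alone (1.57 ± 0.15, adjusted p = 6.42e-10). For all 10 members the 3 OSW-1 plus LPS libraries lay above the 3 LPS-alone ones, as they did for 34.5% of genes. Lars had 161, 167 and 165 CPM with OSW-1 and LPS against 50.7, 59.7 and 60.2 CPM with LPS alone (1.53 ± 0.11, adjusted p = 8.25e-12). Cars rose least, by 0.77 ± 0.16 (adjusted p = 9.84e-05), with 176, 180.2 and 180.5 CPM with OSW-1 and LPS against 125, 120.1 and 70.1 CPM with LPS alone. The spread in the OSW-1 plus LPS group differed between members, with an SD of 10.0 CPM on a mean of 722 CPM for Aars, 17.4 on 271 CPM for Iars and 26.3 on 315 CPM for Gars. In this comparison the summed macrophage markers were also lower in all OSW-1 plus LPS libraries, at 5659 to 7769 CPM against 24432 to 35664 CPM with LPS alone, and their part in the result was not tested.

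With itraconazole and LPS, Tars rose most, with 142, 142 and 131 CPM against 52.5, 57.2 and 52.8 CPM with LPS alone (1.35 ± 0.14, adjusted p = 1.74e-08). Aars had 653, 592 and 473 CPM with itraconazole and LPS against 303, 327 and 206 CPM with LPS alone (1.04 ± 0.19, adjusted p = 5.76e-05). Nars rose by 0.44 ± 0.10 (adjusted p = 0.000761), the smallest rise of the 10. All 10 members had groups that did not overlap, against 24.5% of genes. With 25HC and LPS, Aars had 503, 557 and 469 CPM against 303, 327 and 206 CPM with LPS alone (0.87 ± 0.19, adjusted p = 0.000657). Sars had 332, 361 and 307 CPM with 25HC and LPS against 237, 216 and 142 CPM with LPS alone (0.75 ± 0.16, adjusted p = 0.000753). The groups did not overlap for 8 of the 10 members, Aars and Sars among them, against 20.9% of genes, but they did for Iars and Nars. Iars had 61.6, 93.3 and 99.0 CPM with 25HC and LPS against 50.6, 61.6 and 70.9 CPM with LPS alone (0.47 ± 0.18, adjusted p = 0.0397). The summed macrophage markers were lower in the 25HC plus LPS libraries than in the LPS-alone ones without overlap, and lower with overlap in the itraconazole plus LPS libraries; their part in these results was not tested.

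The count for 25HC with LPS moved with the setting. It was 5 of 10 when the 2 groups were fitted on their own and 6 without mouse 2 of the 25HC plus LPS cells. Shares of all genes called higher under these settings are not given here. The change in the count can therefore not be read as particular to the members. Iars, Lars, Mars and Nars each lost the call without at least 1 single library, with adjusted p values of 0.0652 to 0.271, and Cars without LPS-alone mouse 3 (0.0584). The libraries concerned were the 3 LPS-alone ones and mice 2 and 3 of 25HC plus LPS.

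**Figure D2:**
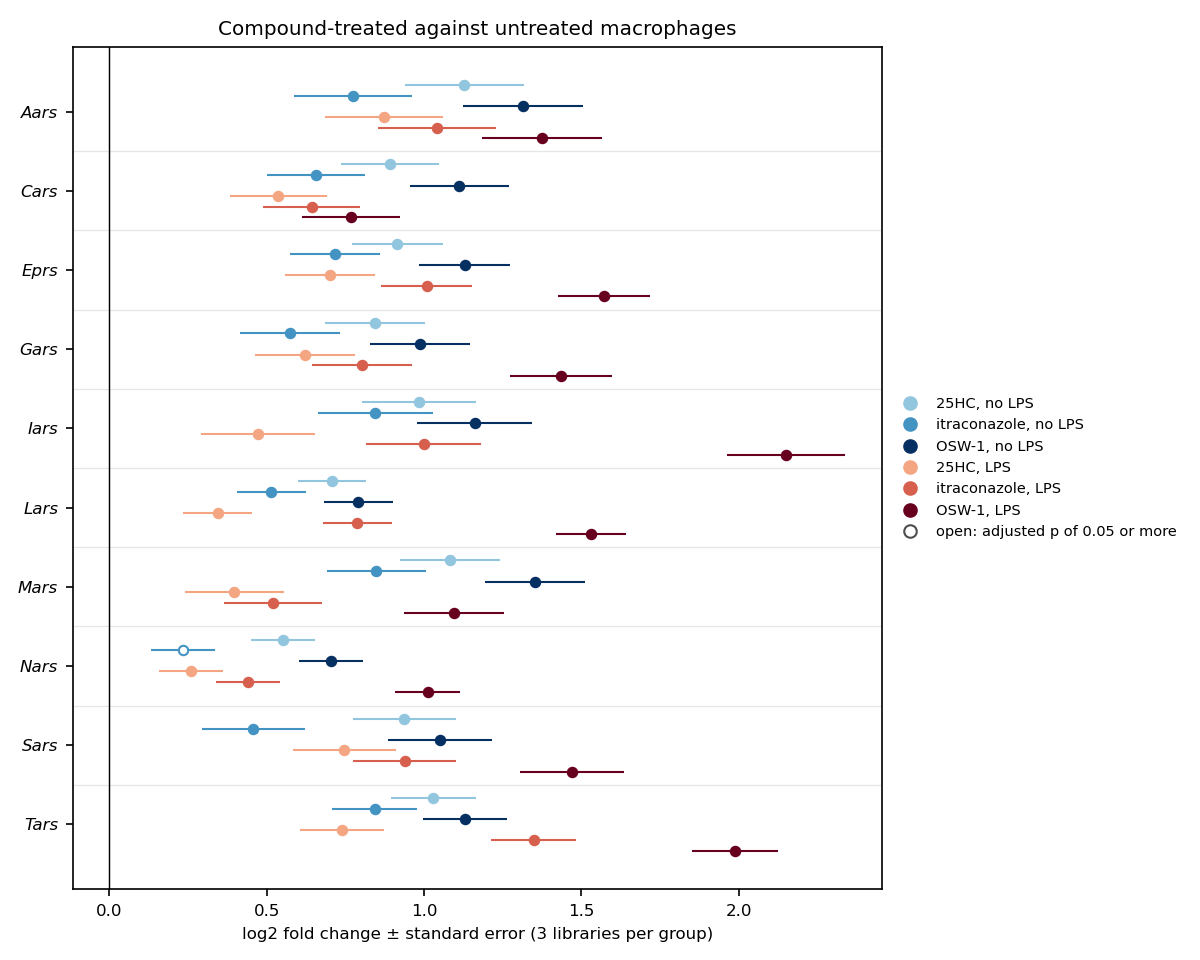
Log2 fold change of each member (x axis, point, with the standard error as a line) for 3 compounds against cells without compound at the same LPS state, without LPS in blues and with LPS in reds; a filled point passed the adjusted p of 0.05. All 60 points lie right of 0, only Nars with itraconazole without LPS at 0.24 is open, and Iars with OSW-1 and LPS lies farthest right at 2.15.

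LPS alone gave a divided picture among the members. In Ch25h-/- cells it raised 6 of the 10, when 28% of all genes were called higher, and in wild-type cells 7 of the 10, when 30.8% were. No member was called lower in either genotype, when 29.2% of all genes were called lower in Ch25h-/- cells and 30.1% in wild-type cells. The members' median log2 fold change was 0.45 in Ch25h-/- cells and 0.53 in wild-type cells, beside -0.024 and -0.0091 over all genes tested. Aars responded most, with 235, 236 and 210.4 CPM with LPS against 81.9, 102 and 76.6 CPM without LPS in Ch25h-/- cells (1.38 ± 0.19, adjusted p = 9.26e-07). In wild-type cells Aars had 303, 327 and 206 CPM with LPS against 141, 135 and 87.9 CPM without (1.20 ± 0.19, adjusted p = 5.98e-06). Eprs rose by 0.86 ± 0.15 in Ch25h-/- cells and by 1.00 ± 0.14 in wild-type cells. Cars rose by 0.64 ± 0.16 in Ch25h-/- cells and by 0.83 ± 0.16 in wild-type cells, and Mars by 0.81 ± 0.16 in Ch25h-/- cells and by 0.59 ± 0.16 in wild-type cells. The LPS libraries lay above the unstimulated ones without overlap for 7 members in Ch25h-/- cells, against 31.7% of genes, and for 5 in wild-type cells, against 30.6%.

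Iars, Lars and Nars did not pass in either genotype. Iars had 72.3, 56.5 and 49.1 CPM with LPS against 59.0, 66.3 and 54.6 CPM without in Ch25h-/- cells. In wild-type cells it had 50.6, 61.6 and 70.9 CPM with LPS against 73.8, 78.9 and 61.9 CPM without, a log2 fold change of -0.23 ± 0.18 with a 95% interval of -0.60 to 0.14. The Iars libraries overlapped in both genotypes. The interval of Lars was -0.14 to 0.32 in Ch25h-/- and -0.13 to 0.32 in wild-type cells, and that of Nars was -0.27 to 0.15 in Ch25h-/- and -0.10 to 0.32 in wild-type cells. Nars passed in wild-type cells without LPS mouse 3 (adjusted p = 0.0461). Gars, at 0.36 ± 0.16 in Ch25h-/- cells (adjusted p = 0.0551), passed there once the mouse was a block (adjusted p = 0.0211). In wild-type cells the calls of Tars (0.31 ± 0.13, adjusted p = 0.045) and Gars (0.48 ± 0.16, adjusted p = 0.0117) were lost without single libraries. Tars had adjusted p values of 0.0509 to 0.186 without mouse 1 or 3 of the unstimulated cells or any 1 of the 3 LPS libraries, and Gars 0.0616 to 0.0748 without unstimulated mouse 3 or LPS mouse 1 or 2. In edgeR's test the Tars call was also lost with DESeq2 size factors (adjusted p = 0.0512) and without the low-count filter (0.0549). That of Gars was lost with the compared groups alone (0.07). Sars in Ch25h-/- cells (0.44 ± 0.16, adjusted p = 0.0246) had values of 0.0536 to 0.0721 without unstimulated mouse 1 or 3 or LPS mouse 2 or 3. The response to LPS was not shown to differ between genotypes: edgeR's quasi-likelihood test of the difference called 0 of 10 members, and none had an unadjusted p under 0.05 with it, DESeq2 or limma-voom, when 0% of all genes were called in either direction.

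The effect of a compound with LPS was then set against its effect without LPS, in the same fit, as a difference of 2 log2 fold changes; a difference in compound exposure between the LPS states and the effect of LPS itself cannot be told apart here. For OSW-1 the effect was larger with LPS for 3 members, Iars, Lars and Tars, against 23.4% of all genes. Iars differed by 0.99 ± 0.26 (adjusted p = 0.00228), its log2 fold change with OSW-1 being 2.15 with LPS and 1.16 without. Tars differed by 0.86 ± 0.19 (adjusted p = 0.000497) and Lars by 0.74 ± 0.15 (adjusted p = 0.000304). With the mouse as a block 7 members passed, with Eprs (adjusted p = 0.0114), Gars (0.0321), Nars (0.0471) and Sars (0.0122) added, and the numbers were 7 with limma-voom and 5 with DESeq2. Without mouse 1 of the OSW-1 cells 7 passed, and 5 passed without mouse 3 of the untreated cells or mouse 1 or 2 of the LPS-alone cells. The 23.4% of all genes belongs to edgeR's fit of all libraries without a block. Shares of all genes under these other settings are not given here, so nothing about the members is drawn from the higher counts. The summed macrophage markers were low in the OSW-1 plus LPS libraries, as given above, and their part in these differences was not tested. Without mouse 3 of the LPS-alone cells Cars passed in the other direction, its OSW-1 effect being smaller with LPS (-0.57, adjusted p = 0.008). With the mouse as a block, DESeq2 and limma-voom, Aars, Cars and Mars did not pass. Their differences in edgeR's fit of all libraries were 0.06 ± 0.26, -0.34 ± 0.22 and -0.26 ± 0.22, with 95% intervals of -0.48 to 0.60, -0.80 to 0.11 and -0.71 to 0.20.

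For itraconazole, Tars alone passed, at 0.51 ± 0.19 (adjusted p = 0.0484), against 12.2% of all genes. The mouse as a block added Sars (0.49, adjusted p = 0.0152). Tars lost the call without any 1 of 9 of the 12 libraries, with adjusted p values of 0.0537 to 0.134. For 25HC all 10 differences were negative with a median of -0.29, beside -0.047 over all genes, and Mars alone passed, at -0.69 ± 0.22 (adjusted p = 0.0437), against 6.95% of genes called lower. Mars had 89.5, 95.05 and 115 CPM with 25HC and LPS against 82.5, 79.1 and 65.5 CPM with LPS alone, and 119, 124 and 77.6 CPM with 25HC against 54.8, 56.2 and 40.1 CPM in untreated cells. Its log2 fold change was 0.40 with LPS and 1.08 without. The call was lost without any 1 of 8 libraries, with adjusted p values of 0.0501 to 0.132, and the count was 2 lower without mouse 3 of the 25HC cells and 3 lower without mouse 3 of the LPS-alone cells. Shares of all genes with those libraries left out are not given here. Mars shares 68 exonic bases with Ddit3 on the opposite strand (GENCODE, GRCm38), and whether the counting used strand is not given in the sources used here. Ddit3 rose by 1.10 ± 0.25 with 25HC without LPS, and its part in the Mars values was not tested.

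**Figure D3:**
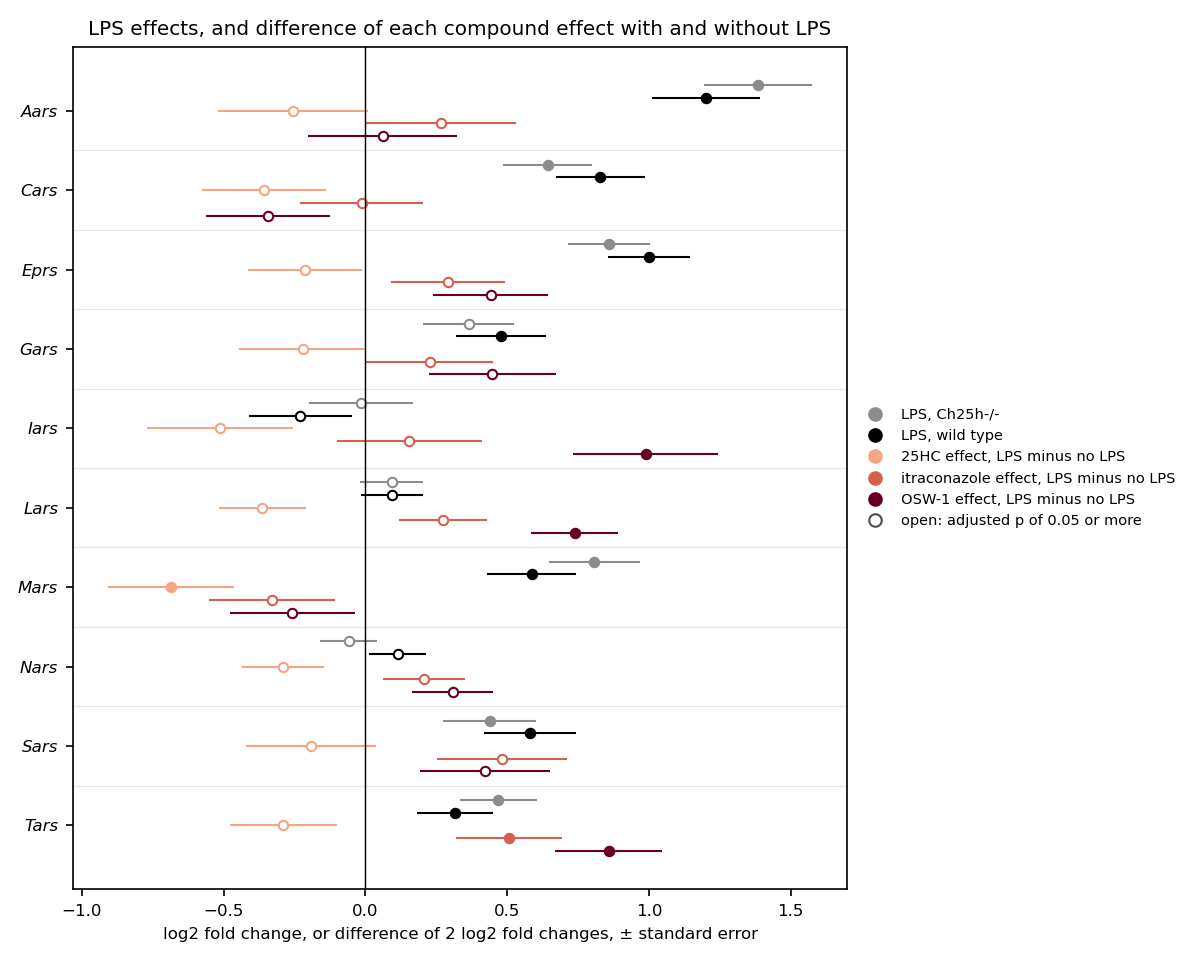
Log2 fold change with LPS in Ch25h-/- (grey) and wild-type cells (black), and the difference of each compound's log2 fold change with and without LPS (coloured), for the 10 members; points are estimates, lines standard errors, and filled points passed the adjusted p of 0.05. Aars lies farthest right for LPS, at 1.38 and 1.20, and the filled coloured points are Iars, Lars and Tars for OSW-1, Tars for itraconazole and Mars for 25HC.

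No member passed the test between the genotypes. Without LPS all 10 log2 fold changes of Ch25h-/- over wild type were negative, with a median of -0.25 beside -0.00086 over all genes. edgeR's quasi-likelihood test called 0 of 10, when 0.00759% of all genes were called lower, and 3 had an unadjusted p under 0.05, as did 4 by DESeq2 and 4 by limma-voom. The share of all genes under that unadjusted threshold was not counted, so nothing is drawn from these unadjusted counts. Aars had 81.9, 102 and 76.6 CPM in Ch25h-/- cells against 141, 135 and 87.9 CPM in wild-type cells (-0.48 ± 0.19, adjusted p = 0.282). Mars had 34.9, 40.7 and 35.9 CPM in Ch25h-/- cells against 54.8, 56.2 and 40.1 CPM in wild-type cells (-0.44 ± 0.16, adjusted p = 0.244). Both pairs of groups overlapped, through wild-type mouse 3. Only the Sars groups did not overlap, with 101, 109.6 and 106 CPM in Ch25h-/- cells against 151, 134 and 113 CPM in wild-type cells (adjusted p = 0.396), a pattern shown by 9.85% of genes.

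With LPS all 10 were again negative, with a median of -0.26, and 0 of 10 were called, against 0.213% of all genes called lower. By the same edgeR test 5 members had an unadjusted p under 0.05, against 4 by DESeq2 and 5 by limma-voom. Here too the share of all genes under the unadjusted threshold was not counted. Without mouse 3 of the wild-type LPS cells, Cars, Eprs, Gars, Nars and Sars passed as lower, at -0.63, -0.51, -0.63, -0.33 and -0.66 on the log2 scale and adjusted p of 0.00209, 0.0162, 0.0068, 0.0241 and 0.00502. In that library Cars had 70.1 CPM, Gars 84.9 CPM and Sars 142 CPM, below the other 2 wild-type LPS libraries for each. Without it 1444 of all genes were called lower in Ch25h-/- cells and 952 higher, against 28 lower and 2 higher with it. Ch25h-/- and wild-type libraries also differ in holding odd counts, as stated above, so genotype and that feature cannot be told apart. With the all-even libraries halved, 0 of 10 were called at both states. The scaling to library size largely undoes halving, so that count does not separate the feature from the genotype.

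In the GENCODE annotation of GRCm38 the members are protein-coding genes spread over the genome: Aars at chr8:111033144-111057664 (plus strand), Cars at chr7:143557230-143600090 (minus strand), Eprs at chr1:185363044-185428360 (plus strand), Gars at chr6:55038007-55079500 (plus strand), Iars at chr13:49682100-49734267 (plus strand). The others are Lars at chr18:42202298-42262194 (minus strand), Mars at chr10:127296221-127311786 (minus strand), Nars at chr18:64499647-64516652 (minus strand), Sars at chr3:108424865-108445209 (minus strand) and Tars at chr15:11382301-11399665 (minus strand). Aars, Cars and Mars share exonic bases with a gene on the opposite strand, 77, 211 and 68 bases, and Aars a further 1326 with a gene on its own strand, so their counts are less certain.

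The members' profiles over the 10 groups were alike to different degrees. Pearson's r between 2 members' mean log2 CPM over the 10 groups ranged from 0.63 (Aars and Iars) to 0.99 (Gars and Sars), with a median of 0.93 over the 45 pairs. The points share libraries, depth and scaling. Aars, Cars and Eprs rose with LPS and with the compounds. In edgeR's fit of all libraries, Iars, Lars and Nars passed in compound comparisons (Nars in 5 of 6) and not with LPS alone. The multi-synthetase complex members Eprs, Iars, Lars and Mars were found on both sides of that division. Iars, for example, stood at 160.1 ± 28.2 CPM with OSW-1 and 142 ± 35.0 CPM with 25HC, above 122 ± 4.71 CPM with itraconazole and LPS (SD, n = 3 each), with libraries that overlapped between neighbours in this order. For Aars the order was different: 573 ± 91.3 CPM with itraconazole and LPS and 509.9 ± 44.2 CPM with 25HC and LPS lay above 301 ± 56.5 CPM with OSW-1 alone. Outside the members, the 10 genes most like their mean profile, of 9759 genes ranked by Pearson's r over the 10 group means, were Utp18, Myo1c, Fndc3b, Xpot, Mob4, Ece2, Ets2, Kdelr2, Uap1 and Pogk, with r of 0.984 to 0.989. Xpot, which exports tRNA from the nucleus (r = 0.986), averaged 212 ± 5.99 CPM with OSW-1 and LPS against 95.8 ± 1.62 CPM with LPS alone, and 149 ± 15.8 CPM with OSW-1 against 71.6 ± 3.87 CPM in untreated cells.

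Among the other 11 cytosolic synthetases the counts were as follows. Without LPS 8 rose with 25HC, 7 with itraconazole and 7 with OSW-1, and none fell, with medians of 0.52, 0.29 and 0.45 on the log2 scale, when 15.9%, 14.4% and 20.1% of all genes were called higher. The 4 named by the smallest p with OSW-1 were Dars (aspartyl, 0.65 ± 0.08), Yars (tyrosyl, 1.22 ± 0.19), Farsb (a subunit of the phenylalanyl enzyme, 0.52 ± 0.12) and Rars (arginyl, 0.53 ± 0.12). With LPS, 3 rose and 1 fell with 25HC (median 0.18), 7 rose and 2 fell with itraconazole (median 0.26), and 9 rose and 2 fell with OSW-1 (median 0.69), when 20.8%, 26.5% and 34.3% of all genes were called higher. Shares of all genes called lower in these compound comparisons are not given here, so nothing is drawn from the falls. Rars rose by 1.53 ± 0.12 with OSW-1 and LPS. There Qars (glutaminyl) fell by 0.28 on the log2 scale and Tarsl2, a threonyl-tRNA synthetase-like gene, by 0.51. LPS alone raised 4 and lowered 3 in wild-type cells, shares near the 30.8% and 30.1% of all genes called higher and lower, and Dars was among the lowered genes at -0.38 ± 0.08.

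Wars, the tryptophanyl-tRNA synthetase, is a known interferon-responsive gene. It had 271, 264 and 293 CPM with OSW-1 and LPS against 85.3, 108 and 74.5 CPM with LPS alone (1.63 ± 0.13, adjusted p = 6.72e-11). Without LPS it had 87.4, 76.4 and 70.1 CPM with OSW-1 against 57.1, 59.9 and 54.2 CPM in untreated cells (0.45 ± 0.13, adjusted p = 0.00866). The OSW-1 effect was larger with LPS by 1.18 ± 0.19 (adjusted p = 1.05e-05), and the itraconazole effect by 0.82.

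Of the 17 mitochondrial synthetases, 5 rose without LPS with 25HC, 4 with itraconazole and 2 with OSW-1, with 1 fall (Cars2, -0.36 ± 0.12 with OSW-1). Their medians were 0.14, 0.14 and -0.056, and 15.9%, 14.4% and 20.1% of all genes were called higher, so that the OSW-1 count was below that share. Ears2 (mitochondrial glutamyl) averaged 6.54 ± 0.380 CPM with OSW-1 against 2.57 ± 0.551 CPM in untreated cells (1.34 ± 0.24, adjusted p = 7.72e-05), and Yars2 (mitochondrial tyrosyl) rose by 0.37 ± 0.12. With LPS, 2 rose with 25HC, 6 rose and 2 fell with itraconazole and 8 rose and 2 fell with OSW-1, when 20.8%, 26.5% and 34.3% of all genes were called higher. For the falls with compounds, the shares of all genes called lower are not given here. With OSW-1 and LPS Ears2 stood at 12.0 ± 0.131 CPM against 3.12 ± 1.39 CPM with LPS alone. LPS alone lowered 8 of the 17 and raised 2 in wild-type cells, when 30.1% of all genes were called lower and 30.8% higher.

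Of the 3 scaffold genes of the multi-synthetase complex, 2 rose with each compound without LPS, Eef1e1 and Aimp2, and Aimp1 did not pass. The shares of all genes called higher were 15.9% with 25HC, 14.4% with itraconazole and 20.1% with OSW-1. With OSW-1 and LPS all 3 rose, when 34.3% of all genes were called higher. Eef1e1 rose by 2.12 ± 0.17 and Aimp2 by 1.90 ± 0.13, to 44.7 ± 2.68 and 42.4 ± 1.22 CPM against 10.3 ± 0.985 and 11.4 ± 1.94 CPM with LPS alone. Aimp2 shares 487 exonic bases with Eif2ak1 on the opposite strand. The 5 genes of elongation factors 1 and 2, which act after charging, all fell with LPS in both genotypes, Eef2 by 0.52 on the log2 scale in wild-type cells, when the percentages of all genes called lower were 29.2% in Ch25h-/- and 30.1% in wild-type cells. With each compound, without or with LPS, at most 1 of the 5 passed, when 14.4% to 34.3% of all genes were called higher. Eef2 with OSW-1 rose by 0.24 ± 0.08.

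Atf4 itself rose with every compound. It had 579.9, 466 and 428 CPM with OSW-1 against 168, 161 and 121 CPM in untreated cells (1.71 ± 0.18, adjusted p = 6.77e-08). With OSW-1 and LPS it had 1135, 1148 and 1204 CPM against 466, 422 and 233 CPM with LPS alone (1.64 ± 0.18, adjusted p = 1.18e-08). Mouse 3 was the lowest library for Atf4 with LPS alone, as for 7 of the 10 members. With 25HC and itraconazole Atf4 rose by 1.27 ± 0.18 and 0.91 ± 0.18, and with LPS alone by 1.32 ± 0.18 in wild-type cells. Of the 12 stress-response regulators around Atf4, 7 rose with 25HC, 4 with itraconazole and 11 with OSW-1 without LPS, when 15.9%, 14.4% and 20.1% of all genes were called higher, and Ddit4 fell with each. Chac1, which breaks down glutathione, rose by 4.44 ± 0.48 with OSW-1, Trib3, a pseudokinase, by 3.33 ± 0.40 and the nuclear protein gene Nupr1 by 2.23 ± 0.24. Nupr1 did not pass with OSW-1 and LPS (-0.09 ± 0.22), where 8 of the 12 rose, against 34.3% of all genes, and Ddit4 fell. LPS alone raised 11 of the 12 in both genotypes, against 28% of all genes in Ch25h-/- and 30.8% in wild-type cells. Cebpg fell in Ch25h-/- cells (-0.41 ± 0.10). Among the 4 eIF2α kinases, Eif2ak3, the endoplasmic reticulum kinase, rose with OSW-1 by 0.58 ± 0.08 and Eif2ak2, the interferon-inducible kinase, fell by 1.23 on the log2 scale.

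Of the 10 amino acid synthesis enzymes, without LPS 9 rose with 25HC, 6 with itraconazole and 8 with OSW-1, with medians of 1.40, 0.87 and 1.21, when 15.9%, 14.4% and 20.1% of all genes were called higher. Got1, a glutamate-oxaloacetate transaminase, fell with itraconazole (-0.26 ± 0.08). Asns, which makes asparagine, averaged 174 ± 46.7 CPM with OSW-1 against 29.7 ± 11.1 CPM in untreated cells (2.55 ± 0.36, adjusted p = 4.72e-06), while Nars, which charges asparagine, rose by 0.70 there. Pycr1 and Aldh18a1 of proline synthesis rose by 2.47 ± 0.33 and 1.68 ± 0.22, and Mthfd2 of mitochondrial folate metabolism by 2.13 ± 0.26. With LPS, 6 rose with 25HC, 6 with itraconazole and 7 with OSW-1, when 20.8%, 26.5% and 34.3% of all genes were called higher. With OSW-1 and LPS Mthfd2 did not pass (0.17 ± 0.25), being at 206 ± 29.2 CPM against 183 ± 50.7 CPM with LPS alone.

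**Figure D4:**
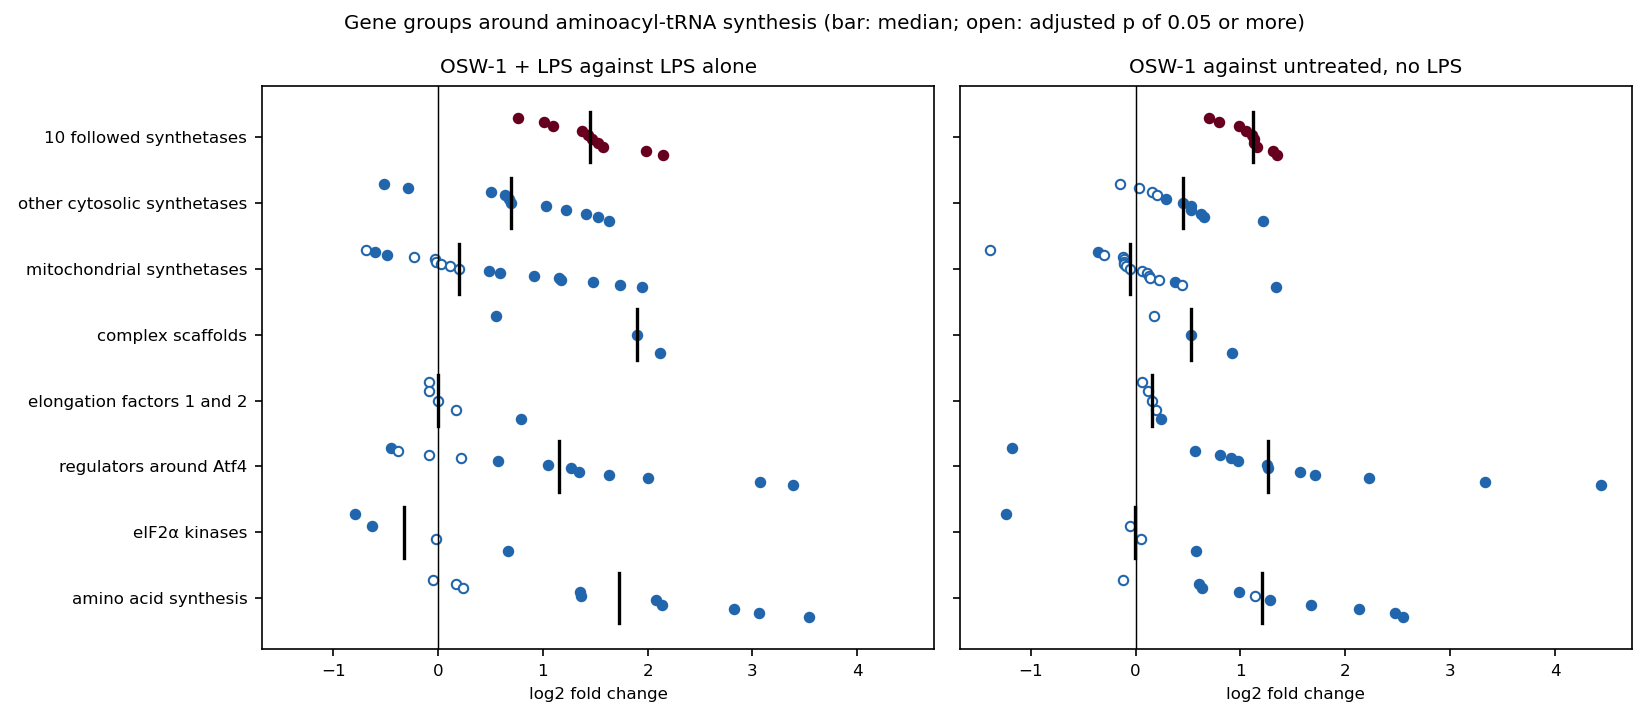
Log2 fold changes (x axis) of the 10 members (dark red) and 7 other gene lists (blue) with OSW-1 and LPS against LPS alone (left panel) and with OSW-1 against untreated cells without LPS (right panel); each point is a gene, the bar is the list's median, and open points did not pass the adjusted p of 0.05. The members' medians are 1.45 and 1.12, and those of the mitochondrial synthetases 0.20 and -0.056.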

How the data were processed

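Gene counts were deposited by the authors for 30 libraries as a single table of raw counts. Per the submitters' processing notes, the tools named are FastQC 0.11.9, GSNAP, featureCounts of Subread 1.5.2 and edgeR 3.26.8, with GRCm38/mm10 as the build, and per the labels' protocols the libraries were Illumina TruSeq stranded. The strand setting of the counting is not given in the sources used here, and neither is the reason for the all-even counts of 20 libraries.

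The counts were scaled by TMM and tested with edgeR 4.0.16 (R 4.3.3) in 1 quasi-likelihood fit of 10 groups after filterByExpr with a minimum count of 10, which kept 13173 of 30538 genes. A total of 14 comparisons were made, 4 of them differences of 2 effects, each with Benjamini-Hochberg adjustment over all genes and calls at an adjusted p under 0.05. The SE of a log2 fold change is its size over the square root of F. Alternatives were DESeq2 1.42.0 size factors and Wald test, no filter, limma 3.58.1 voom with a correlation within mice, the mouse as a block, the compared groups alone, halved all-even libraries and each library left out. The mouse number in the labels pairs libraries within a genotype as 1 animal; same-mouse deviations correlated weakly (median r of 0.0906 in Ch25h-/- and 0.0865 in wild type), and 6 of 6 and 22 of 24 libraries correlated best with their own mouse. Mice of the 2 genotypes share only a number. The script was tested on simulated data.

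The p-values of the quasi-likelihood fit rest on the spread between mice within groups, estimated jointly over the 10 groups and both genotypes. Each group held 1 library of each of 3 mice. That fit did not account for the same mouse recurring across groups, which the block and the voom alternatives did. The members and gene lists were chosen with earlier results of these data known. The genes named were all members, up to 4 of each list with the smallest p with OSW-1 without LPS among those called, Wars, Atf4 and the 10 most alike genes; Qars, Tarsl2, Ddit3, Ddit4, Cebpg, Got1 and Aimp1 were named after their values were seen. Emr1 in the table was read as Adgre1 by its gene ID, and Trac was not matched. A further promoter match is not reported here.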

Additional observations from a re-analysis of the deposited data

Results flagged for a closer look

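Tests of the difference between a compound's effect with LPS and without it called 5 member values. For OSW-1 3 of 10 members were called higher, against 23.4% of all genes. For itraconazole it was 1 of 10, against 12.2% called higher, and for 25HC 1 of 10, against 6.95% called lower. These member counts lie near the shares of all genes. The OSW-1 effect was larger with LPS for Iars (by 0.989 on the log2 scale, adjusted p = 0.00228 in edgeR's quasi-likelihood test), Lars (by 0.738, adjusted p = 0.000304) and Tars (by 0.858, adjusted p = 0.000497). The itraconazole effect was larger with LPS for Tars (by 0.507, adjusted p = 0.0484). The 25HC effect was smaller with LPS for Mars (a difference of -0.686, adjusted p = 0.0437). The OSW-1 plus LPS libraries that enter the first 3 values are also the ones with low summed macrophage markers and with odd counts. The part of the markers was not tested. With the all-even libraries halved the count was again 3, but the scaling to library size largely undoes halving. That count therefore cannot tell the odd counts apart from the group. The values for Tars with itraconazole and Mars with 25HC lie near the threshold and lost the call without single libraries.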

How the results depend on the processing

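Of 2060 member values under alternatives, 1928 kept their direction and side of the threshold, 62 lost the call, 40 gained it and 30 changed sign; no sign change was of a called value. Counts of called members moved by over 1.5 times in these cases. 25HC with LPS gave 5 with the compared groups alone and 6 to 10 with single libraries left out. Ch25h-/- against wild type with LPS gave 0 to 5 with single libraries left out. The 25HC difference gave 0 with the compared groups alone and 0 to 3 with single libraries left out. The itraconazole difference gave 0 with DESeq2 size factors, 0 without the filter, 2 with the replicate block, 2 with voom and 0 to 2 with single libraries left out. The OSW-1 difference gave 7 with the replicate block, 5 with DESeq2, 7 with voom and 3 to 7 with single libraries left out. Shares of all genes called under these settings are not set beside these counts, so nothing about the members is drawn from the changes. The cause was not tested.

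Values near 0 changed sign. Iars with LPS in Ch25h-/- cells was 0.0047 with DESeq2 size factors, 0.0050 with DESeq2 and -0.18 to 0.10 with single libraries left out. Cars in the itraconazole difference was 0.016 with voom and -0.24 to 0.12 with single libraries left out. Lars in the difference of LPS effects between genotypes was 0.028 with size factors, 0.0045 without the filter, 0.028 with DESeq2, 0.026 with the compared groups alone, 0.0025 with halved libraries and -0.078 to 0.071 with single libraries left out. With single libraries left out, Iars in Ch25h-/- against wild type with LPS ranged from -0.21 to 0.080, Aars in the OSW-1 difference from -0.12 to 0.24, and Gars and Sars in the difference between genotypes from -0.30 to 0.019 and from -0.33 to 0.0055. With the mouse as a replicate block, Gars with LPS in Ch25h-/- cells, Sars in the itraconazole difference and Eprs, Gars, Nars and Sars in the OSW-1 difference gained the call, and no other member call changed. Between genotypes the block was a shared number only, and it called 0 of 10 without and 0 of 10 with LPS. DESeq2 size factors moved the median of all genes by at most 0.0288. Over all genes, Ch25h-/- against wild type without LPS called 0 higher and 1 lower with edgeR, 41 and 88 with DESeq2 and 9 and 21 with the replicate block; with LPS it called 2 and 28 with edgeR, 58 and 172 with DESeq2, 10 and 68 with the block, and 0 and 0 with the compared groups alone.

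No member had under 846 counts in a library, and the 3 mice a group limit the precision.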
